A study of Mus musculus with 8 samples.

Results

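Splicing factor genes of the SR, hnRNP, snRNP, SF3 and LSm families were examined in MYC-positive and MYC-negative germinal centre B cells of the mouse. Members were the genes whose probe set carried 1 platform gene symbol beginning with Srsf, Hnrnp, Snrp or Sf3, or with Lsm and a digit, and each gene was read from its brightest probe set. This gave 59 of the 18193 genes on the array: 10 Srsf, 19 Hnrnp, 9 Snrp, 9 Sf3 and 12 Lsm genes. In all, 56 of the 59 lay above the filter on dim probe sets, a mean signal of 18.7, and were tested. Genes read only by probe sets with several symbols, among them Snrpd1, Snrpd2, Snrpa, Hnrnpa3 and Lsm5, did not meet the rule.

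The samples were GC B cells (PNAhi/CD95hi) from the spleens of 8 week old GFPMYC/C57BL6 knock-in mice, 12 days after immunization with sheep red blood cells (SRBC). B cells were enriched with magnetic beads and sorted by GFP, which reports MYC protein from the knock-in allele, into 4 MYC-positive and 4 MYC-negative samples that the descriptions join in 4 pairs. All samples carried the GFPMYC allele and were immunized, so there was no group of other B cells or of unimmunized mice. The labels speak both of 2 pools for each mouse and of pools of splenic cells, so a pair may be 1 mouse or several, and the p-values may measure only the spread between these samples.

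Most genes of the mouse are read into a precursor RNA whose introns are removed by the spliceosome. Its building blocks are small nuclear ribonucleoproteins (snRNPs), each a short nuclear RNA on a ring of Sm or LSm proteins with further proteins of its own, and SF3a and SF3b are parts of the U2 snRNP that hold it to the branch site. SR proteins, which bind exons and mostly favour their use, and hnRNP proteins, which coat the precursor RNA and often disfavour it, adjust where the spliceosome acts. MYC is a transcription factor whose known targets in tumour cells include SR and hnRNP genes and the enzymes that assemble snRNPs.

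Among the members of the family called higher in MYC-positive cells, 6 of 12 were Snrp genes. The SR protein genes had none past the threshold, and the hnRNP genes had 1 in each direction. Of 8 Snrp genes tested, 6 were higher and 0 lower, with a median log2 difference (MYC-positive minus MYC-negative) of 0.58. Sf3 had 2 higher of 9 with a median of 0.40, and Lsm had 3 higher of 12 with a median of 0.34. Hnrnp had 1 higher and 1 lower of 18 with a median of 0.12, and Srsf had 0 of 9 with a median of 0.06. At an unadjusted limma p under 0.05, Srsf still had 0 genes in either direction, and Snrp had 8 of 8 higher. At that unadjusted threshold, 1996 of all 11754 genes tested were higher and 2257 lower. Of the 4221 genes with a mean signal over 1000, 1093 were higher and 860 lower. The count of Snrp genes called higher at a limma adjusted p under 0.05 changed with the pair left out. It was 2, 3, 4 and 7 without pairs 1, 2, 3 and 4, and that of the whole family was 3, 3, 8 and 16.

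Over the 56 genes tested, 12 were higher, or 21.4%, and 1 was lower, or 1.79%, at a limma adjusted p under 0.05, and their median difference was 0.21. Among all 11754 genes tested, 22.7% were called in either direction, 11.2% higher and 11.5% lower, with a median of -0.06. Splicing factors give bright probe sets, and bright genes were higher more often: among 4221 genes with a mean signal over 1000, 17.7% were higher and 13.3% lower, with a median of 0.05. Of the 49 members above that signal, 11 were higher and 1 lower, or 22.4% and 2.04%. The share called higher was near that of these bright genes, and the share called lower was under their 13.3%. The members were mostly brighter still, with median signals of 5545 in MYC-positive and 5024 in MYC-negative arrays. Among 991 genes with a mean signal over 5000, 17.1% were higher and 5.05% lower, with a median of 0.13, so the share called lower was closer to that of the members. The 8 control genes tested, among them Actb, B2m and Hprt, had 0 called in limma (3 higher and 0 lower at an unadjusted p under 0.05) and a median of 0.29, above that of the members together. The Snrp count of 6 of 8, or 75%, is to be read against the 11.2% of all genes and the 17.7% of bright genes.

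The count over the whole family changed with the scale of the arrays, while Snrp had the highest median of the classes under each scaling. The deposited signals were scaled so that the arrays shared a trimmed mean (497 to 498), while their medians, set by dim probe sets, ran from 28.2 to 39.7 in MYC-positive and from 41.5 to 55.9 in MYC-negative arrays. Centring each array on its median moved the median of all genes to 0.38 and the number of members called higher to 39, with 0 lower. Of all genes called, 49.4% were higher as deposited, against 57.2% after quantile normalization, 85.4% after median centring and 55.0% when arrays were centred on the genes tested. The median of Snrp was above 0 under each of these scalings (0.49 to 1.02), that of Srsf lay between 0.06 and 0.50, and that of Hnrnp turned to -0.03 after quantile normalization.

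In a comparison of classes within a pair, a constant factor on each array cancels, but a shift that depends on brightness does not. The contrasts were made on the deposited signals only. Median signals in MYC-positive and MYC-negative arrays were 9758 and 6725 for Snrp, 8186 and 7175 for Hnrnp, and 5593 and 6323 for Srsf. They were 4113 and 2587 for Sf3, and 2901 and 2089 for Lsm. The Snrp median exceeded the Srsf median in 4 of 4 pairs, by 0.62, 0.35, 0.15 and 0.75 in pairs 1 to 4 (mean 0.47 ± 0.27, SD, n = 4 pairs). It exceeded the Hnrnp median in 4 of 4 pairs, by 0.44, 0.29, 0.41 and 0.66 (mean 0.45 ± 0.15, SD, n = 4 pairs). In each case the exact sign-flip test, two-sided, gave p = 0.125, the smallest that 4 pairs allow. Hnrnp and Srsf differed by 0.016 ± 0.19 (SD, n = 4 pairs; exact sign-flip p = 0.875). The difference of Snrp from Sf3 averaged 0.17 ± 0.19 and that from Lsm 0.31 ± 0.21, also positive in 4 of 4 pairs (exact sign-flip p = 0.125 for each). These contrasts were chosen after the class medians had been seen, with 8 computed in all, and Benjamini-Hochberg adjustment over them took each exact p of 0.125 to 0.20.

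**Figure D1:**
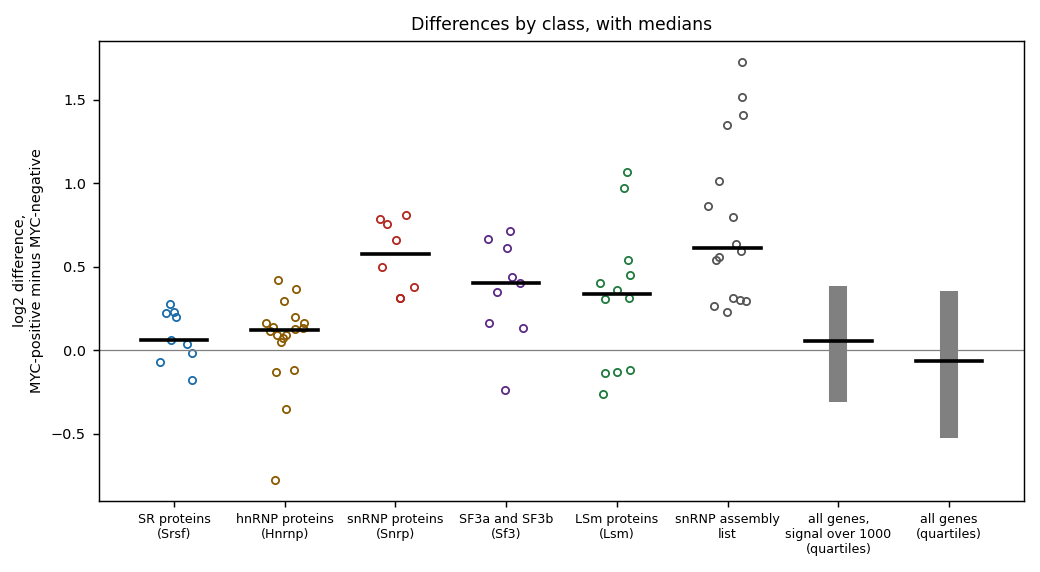
Log2 difference (MYC-positive minus MYC-negative, vertical axis) of each gene tested, by class on the horizontal axis, where black lines are medians, with grey bars for the quartiles of all genes and of genes with a mean signal over 1000. The 8 Snrp genes all lie above 0 with a median of 0.58, and the 9 Srsf genes lie around 0 with a median of 0.06.

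Before the members are taken in turn, the samples were checked against their labels. Myc had signals of 361, 932, 644 and 891 in MYC-positive arrays of pairs 1 to 4, against 33.3, 156, 105 and 137 in MYC-negative arrays, and was higher by 2.83 on the log2 scale (SE 0.28, limma adjusted p = 6.9e-04). The germinal centre B cell markers passed the filter for 10 of 10 on the array, with summed signals of 47849 to 61272 in MYC-positive and 62005 to 81708 in MYC-negative arrays, and 3 of them (Fas, Cd22 and Mybl1) were lower in MYC-positive cells. Of 12 myeloid markers tested, 8 were higher (Csf1r, Vcam1, C1qa, C1qb, C1qc, Lyz2, Hmox1 and Ctsb) and 1, Apoe, was lower in MYC-positive cells, with summed signals of 2971 to 12356 against 2111 to 3156. Csf1r, Vcam1, C1qa and C1qc had MYC-negative geometric means of 5.42, 7.44, 6.15 and 3.33, under the filter of 18.7. They passed it only through the MYC-positive arrays, so the count of 8 is not independent of the filter. Plasma cell markers summed to 24787 to 31433 in MYC-positive and 16257 to 28278 in MYC-negative arrays. Of 6 tested, 3 were higher (Sdc1, Irf4 and Derl3), while Prdm1 (0.54), Xbp1 (0.35) and Jchain (0.02) were not called. Tnfrsf17 was under the filter, with geometric means of 2.15 in MYC-positive and 11.2 in MYC-negative arrays. T cell markers passed the filter for 2 of 8, erythroid for 1 of 5 and granulocyte for 1 of 7, and Cd3d, Cd3e, Cd3g and Cd4 were under the filter; the summed signals of T cell markers were 96.7 to 165 against 93.0 to 210, of erythroid markers 38.5 to 73.3 against 26.6 to 72.3, and of granulocyte markers 55.7 to 603 against 47.7 to 131. The part of these markers in the results below was not tested. In such bulk samples, fewer cells of a type and less RNA per cell cannot be told apart.

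**Figure D2:**
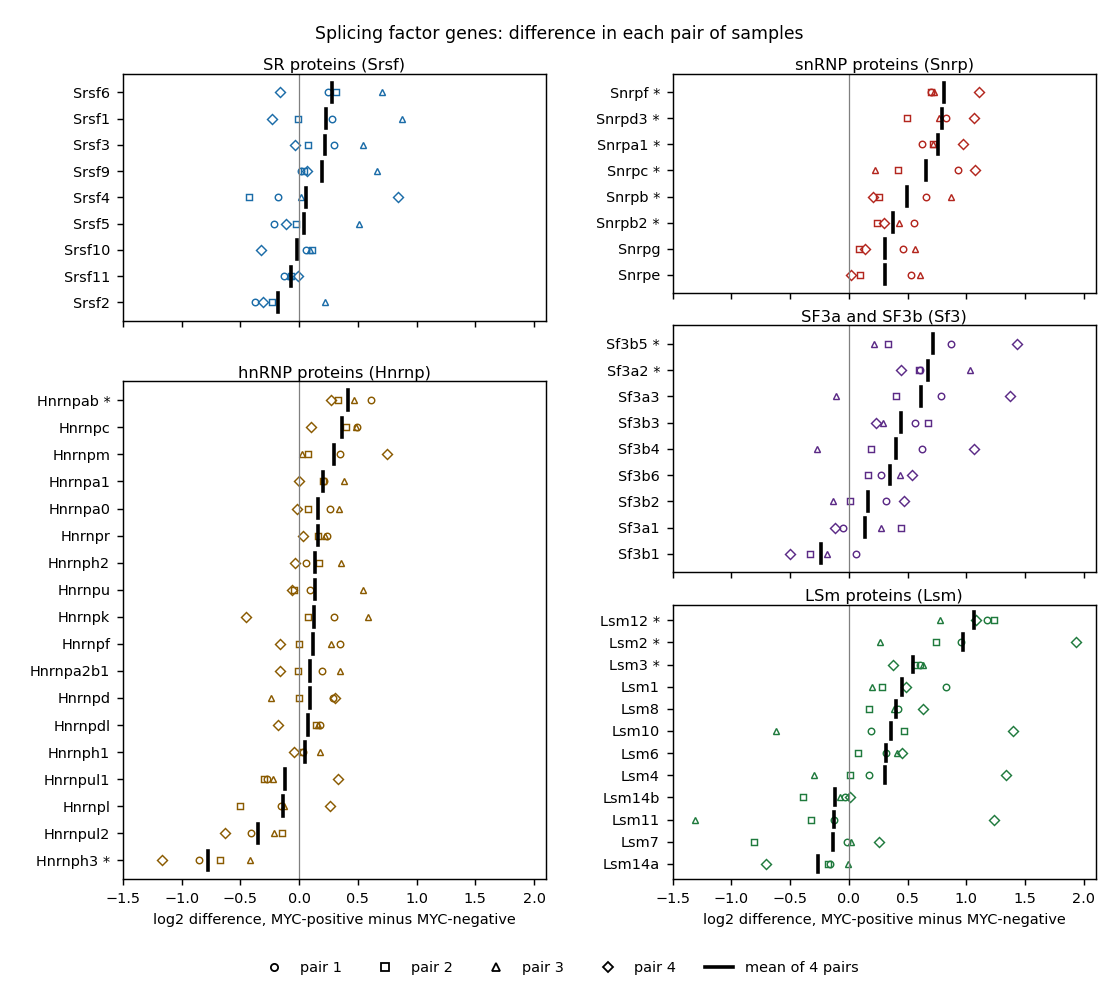
Log2 difference (MYC-positive minus MYC-negative, horizontal axis) of the 56 genes tested, by class, with open symbols for the 4 pairs, black bars for their mean and asterisks for genes with a limma adjusted p under 0.05. The Snrp genes lie right of 0 in every pair, while 7 of the 9 Srsf genes and most Hnrnp genes straddle it.

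The Sm proteins form the ring that closes around the U1, U2, U4 and U5 RNAs. Snrpd3, the SmD3 protein of that ring, had signals of 10234, 10613, 10416 and 15050.2 in MYC-positive arrays of pairs 1 to 4, against 5762, 7549, 6130.4 and 7176 in MYC-negative arrays. The lowest MYC-positive array stood above the highest MYC-negative one, and the MYC-positive array of pair 4 stood apart above the rest. Snrpd3 was higher by 0.79 (SE 0.13, limma adjusted p = 0.0044), and its adjusted p was 0.051 without pair 1. Snrpf, the SmF protein, had signals of 5557, 6224, 5486 and 8707 in MYC-positive arrays, against 3416, 3834, 3315 and 4043 in MYC-negative arrays. The groups did not overlap, and Snrpf was higher by 0.81 (SE 0.14, limma adjusted p = 0.0046).

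Snrpb, which encodes the SmB and SmB' proteins, had signals of 8919, 8513, 9766 and 11722 in MYC-positive arrays, against 5649, 7114, 5339 and 10174 in MYC-negative arrays. The groups overlapped, because the MYC-negative array of pair 4 was above 3 of the MYC-positive ones, but each pair ran the same way. It was higher by 0.50 (SE 0.15, limma adjusted p = 0.038). The call for Snrpb was lost without any one of pairs 1, 2 and 3, where the adjusted p was 0.20, 0.086 and 0.10.

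The remaining ring members on the list did not pass the threshold. Snrpe (SmE) had signals of 13307, 11788, 15064 and 18475 in MYC-positive arrays, against 9223, 11049, 9930.0 and 18266 in MYC-negative arrays (difference 0.31, limma adjusted p = 0.13). Snrpg (SmG) had 11693, 11709.8, 13828 and 17667 in MYC-positive arrays, against 8516, 11025, 9378 and 16062 in MYC-negative arrays (difference 0.31, limma adjusted p = 0.11). Both had a positive difference in each of the 4 pairs, small in pairs 2 and 4, and their groups overlapped. Snrpn, a relative of Snrpb that is best known from the brain and is imprinted, was under the filter, with geometric mean signals of 5.68 in MYC-positive and 5.44 in MYC-negative arrays.

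Snrpa1, the U2 A' protein, belongs to 1 snRNP. Its signals were 4467, 4746, 4907 and 5587 in MYC-positive arrays of pairs 1 to 4, against 2896, 2889.8, 2984 and 2852 in MYC-negative arrays. The MYC-negative arrays lay close to each other and every MYC-positive array was well above them. Snrpa1 was higher by 0.76 (SE 0.13, limma adjusted p = 0.0059), and its other 2 probe sets gave 0.86 and 0.83. Snrpa1 and Snrpf were the 2 of 13 called genes whose call held under all 14 alternatives tried.

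Snrpb2, the U2 B'' protein that pairs with U2 A' on the same RNA, had signals of 8935, 8504, 9753 and 12759 in MYC-positive arrays, against 6101, 7206, 7274 and 10402 in MYC-negative arrays. The groups overlapped only because of pair 4, whose MYC-negative array was above 3 MYC-positive ones, and the difference was positive in each pair. It was 0.38 (SE 0.12, limma adjusted p = 0.049), at the edge of the threshold, and the call was lost without pair 1 (adjusted p = 0.25), pair 2 (0.13) or pair 3 (0.094). A further Snrpb2 probe set gave 0.51, and a dim one -0.04. After quantile normalization the Snrpb2 difference was 0.22 (limma adjusted p = 0.095) and not called. Snrpc, the U1 C protein that steadies the contact with the 5′ splice site, had signals of 3539, 3365, 2295 and 3642 in MYC-positive arrays, against 1859, 2524, 1968 and 1732 in MYC-negative arrays. The MYC-positive array of pair 3 fell among the MYC-negative values, and the difference was 0.66 (SE 0.18, limma adjusted p = 0.031), with the call lost without pair 1 (adjusted p = 0.17) or pair 2 (0.097). The second Snrpc probe set, close to the filter at signals of 22.1 and 42.5, gave -0.94 and turned the mean over both probe sets to -0.14.

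**Figure D3:**
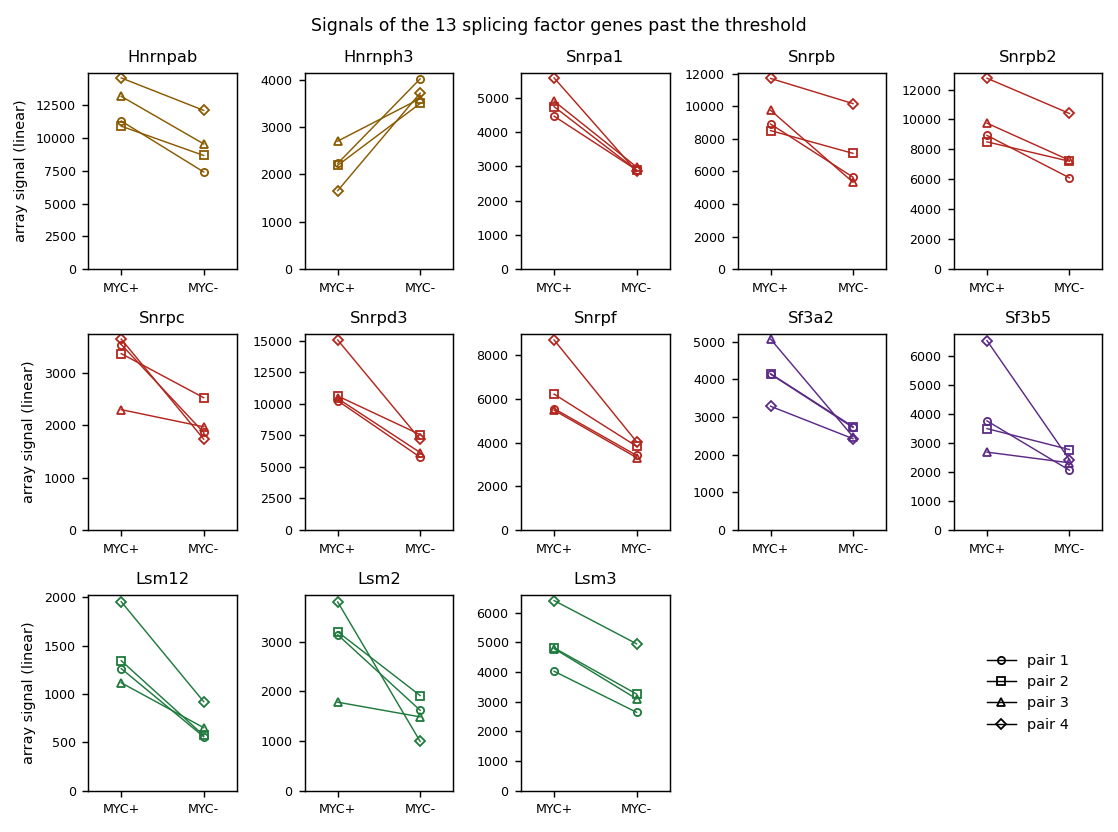
Deposited array signal on a linear scale from 0 (vertical axis) in the MYC-positive (left) and MYC-negative (right) array of each pair, joined by a line, for the 13 genes with a limma adjusted p under 0.05. All lines but those of Hnrnph3 run downward to the MYC-negative array, and the groups do not overlap for Snrpa1, Snrpd3, Snrpf, Sf3a2, Lsm12 and Hnrnph3.

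The promoters of these genes were read as sequence, since MYC binds the E-box CACGTG and variants of it. RefSeq windows (GRCm38.p6) from 250 bases before to 50 bases after the start were at hand for 51 of the 59 genes. They are shown for 4 of the snRNP genes that were higher, and for Hnrnpm, which was not called and holds the canonical E-box. Capitals mark, on either strand, CACGTG, the variant CACGCG, the ETS motif CCGGAAG and the GC box GGGCGG, none of which overlap here, and the first 250 bases lie before the start.
Snrpd3, chr10:75517792-75518091, plus strand: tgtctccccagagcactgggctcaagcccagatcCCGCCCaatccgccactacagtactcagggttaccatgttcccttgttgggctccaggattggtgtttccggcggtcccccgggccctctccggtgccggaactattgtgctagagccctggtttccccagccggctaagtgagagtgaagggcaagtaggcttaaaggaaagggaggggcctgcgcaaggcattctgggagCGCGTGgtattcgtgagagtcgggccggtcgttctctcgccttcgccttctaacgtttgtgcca
Snrpa1, chr7:66060086-66060385, plus strand: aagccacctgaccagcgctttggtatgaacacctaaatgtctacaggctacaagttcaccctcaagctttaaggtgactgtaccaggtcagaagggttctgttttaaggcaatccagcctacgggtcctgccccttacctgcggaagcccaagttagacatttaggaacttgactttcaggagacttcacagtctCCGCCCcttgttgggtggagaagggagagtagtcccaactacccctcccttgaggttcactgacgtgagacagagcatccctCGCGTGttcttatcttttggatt
Snrpb2, chr2:143062819-143063118, plus strand: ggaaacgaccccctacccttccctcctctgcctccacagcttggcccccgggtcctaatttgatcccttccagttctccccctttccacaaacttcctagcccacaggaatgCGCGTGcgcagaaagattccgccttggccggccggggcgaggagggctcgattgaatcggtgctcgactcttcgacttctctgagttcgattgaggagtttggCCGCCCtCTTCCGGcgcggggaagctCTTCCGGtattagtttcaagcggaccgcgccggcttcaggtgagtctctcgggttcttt
Snrpf, chr10:93589609-93589908, minus strand: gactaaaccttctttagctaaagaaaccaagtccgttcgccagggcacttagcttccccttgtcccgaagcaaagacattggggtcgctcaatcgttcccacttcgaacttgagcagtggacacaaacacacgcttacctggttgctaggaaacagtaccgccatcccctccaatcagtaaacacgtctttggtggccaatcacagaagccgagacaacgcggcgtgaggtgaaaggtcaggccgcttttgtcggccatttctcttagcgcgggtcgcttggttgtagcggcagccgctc
Hnrnpm, chr17:33685409-33685708, minus strand: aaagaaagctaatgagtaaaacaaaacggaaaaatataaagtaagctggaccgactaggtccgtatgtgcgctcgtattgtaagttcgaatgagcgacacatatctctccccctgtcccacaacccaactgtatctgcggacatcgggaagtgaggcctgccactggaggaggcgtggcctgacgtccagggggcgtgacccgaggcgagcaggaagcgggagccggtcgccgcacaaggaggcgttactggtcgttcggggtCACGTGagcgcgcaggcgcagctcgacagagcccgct

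The variant motif starts 14 bases before the start in Snrpd3, 27 bases past it in Snrpa1 and 138 bases before it in Snrpb2, while Snrpf holds none of the 4 motifs and Hnrnpm holds CACGTG 13 bases past its start. Snrpc, also higher, has a window that is not shown, with the ETS motif but neither E-box. The canonical E-box was in the windows of 4 of 51 members (7.84%), Hnrnpd, Hnrnpf, Hnrnph2 and Hnrnpm. It was in 0 of the 9 members called higher that have a window. The share was 11.7% of the genes tested, 17.4% of all tested genes called higher and 8.09% of all genes. The variant was in 6 of those 9 members, Snrpd3, Snrpa1, Snrpb2, Sf3a2, Lsm2 and Lsm3, and in 8 of the 42 other members (19.05%). Its share was 19.6% of the genes tested, 24.65% of all tested genes called higher and 10.5% of all genes. The ETS motif was in 6 of 7 Sf3 and 4 of 8 Snrp genes but 0 of 9 Lsm genes, against 20.3% of the genes tested and 9.93% of all genes. The GC box was in 72.5% of members and 37.5% of Snrp genes, against 66.8% of the genes tested and 38.2% of all genes. The motifs other than CACGTG were added once the values were known, so these shares are a description and no test was made. A match in a window shows no binding, and a window without one says nothing of MYC at the gene.

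The SF3a and SF3b complexes join the U2 snRNP to the branch site. Sf3a2, an SF3a subunit, had signals of 4139, 4150.4, 5069.6 and 3285 in MYC-positive arrays, against 2722, 2743, 2477 and 2422 in MYC-negative arrays. The groups did not overlap, and Sf3a2 was higher by 0.67 (SE 0.15, limma adjusted p = 0.015), with adjusted p-values of 0.087, 0.079 and 0.050 without pairs 1, 2 and 3. Without probe sets named _x_at or _s_at, Sf3a2 was read from a dimmer probe set that gave 0.73 (limma adjusted p = 0.20) and was not called. Sf3b5, a small SF3b subunit, had 3752, 3487, 2677 and 6517 in MYC-positive arrays, against 2054, 2764, 2308 and 2417 in MYC-negative arrays. The MYC-positive arrays ran from just within the MYC-negative range in pair 3 to far above it in pair 4. The difference was 0.71 (SE 0.21, limma adjusted p = 0.039), and the call was lost without pair 1 (adjusted p = 0.18) or pair 2 (0.084). A second Sf3b5 probe set gave 0.77 and a dim one 0.19, and with the mean over the probe sets the difference was 0.56 (limma adjusted p = 0.088) and not called.

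Sf3b3, the large SF3b subunit shaped as propellers, had signals of 5210.0, 5429.7, 5128 and 4187 in MYC-positive arrays, against 3522, 3406, 4185 and 3576 in MYC-negative arrays. These groups did not overlap, by the narrowest margin, and the difference of 0.44 missed the threshold (limma adjusted p = 0.051). Sf3b1, the scaffold of SF3b and a gene often mutated in human blood cancers, had 5265, 4196, 6618 and 6802 in MYC-positive arrays, against 5054, 5276, 7549 and 9626 in MYC-negative arrays. It alone of the 9 Sf3 genes had a negative difference, -0.24 (SE 0.14, limma adjusted p = 0.24), which turned to 0.20 after median centring. The other Sf3b1 probe sets, all dimmer, gave -0.43, -0.85 and -1.06 (limma adjusted p over probe sets = 0.072, 0.015 and 0.013). With the mean over probe sets the difference was -0.65, and Sf3b1 was called lower there and after quantile normalization. Sf3a3, the SF3a subunit that bridges to U2, had 2005, 1623, 921 and 1549 in MYC-positive arrays, against 1163, 1230.1, 992 and 599 in MYC-negative arrays (difference 0.61, limma adjusted p = 0.11). Of the 9 Sf3 genes, it varied most between pairs, from -0.11 in pair 3 to 1.37 in pair 4. The other 4 genes, Sf3a1, Sf3b2, Sf3b4 and Sf3b6, had differences between 0.14 and 0.40 and were not called.

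The LSm proteins fall into several rings. Lsm2 to Lsm8 close around the end of the U6 RNA, and Lsm1 takes the place of Lsm8 in a cytoplasmic ring that promotes mRNA decapping. Lsm2, shared by both rings, had signals of 3139, 3199, 1782 and 3800.1 in MYC-positive arrays, against 1621, 1916, 1487 and 994 in MYC-negative arrays. Only the pair 3 arrays lay close together, and Lsm2 was higher by 0.97 (SE 0.25, limma adjusted p = 0.024), with the call lost without pair 1 (adjusted p = 0.12) or pair 2 (0.082). Lsm3, also in both rings, had 4026, 4814, 4790.2 and 6409 in MYC-positive arrays, against 2644, 3258, 3096 and 4952 in MYC-negative arrays. Each pair differed by a similar amount, from 0.37 to 0.63, with a difference of 0.54 (SE 0.13, limma adjusted p = 0.019), and the adjusted p was 0.12 without pair 1, 0.11 without pair 2 and 0.051 without pair 3.

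Lsm8 and Lsm1, which tell the rings apart, both missed the threshold. Lsm8, of the U6 ring, had 3611, 3431, 2845 and 4662 in MYC-positive arrays, against 2698, 3057, 2178 and 3018 in MYC-negative arrays (difference 0.40, limma adjusted p = 0.077). Lsm1, of the decapping ring, had 1781, 1401, 1281 and 1621 in MYC-positive arrays, against 1003, 1155, 1116 and 1157 in MYC-negative arrays (difference 0.45, limma adjusted p = 0.11). Both were above their partner in 4 of 4 pairs, and each had a dimmer probe set of opposite sign. Lsm6, Lsm4 and Lsm7 had differences of 0.31, 0.31 and -0.14 and were not called.

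Lsm12, an LSm-domain protein outside these rings, had the largest difference of the 56 genes tested. Its signals were 1263, 1345, 1117 and 1955 in MYC-positive arrays, against 559, 572, 652 and 922 in MYC-negative arrays. The groups did not overlap, and it was higher by 1.07 (SE 0.18, limma adjusted p = 0.0049), with an adjusted p of 0.054 without pair 2. The other 2 Lsm12 probe sets were dim and gave 0.68 and 0.07, and with the mean over the probe sets the difference was 0.60 (limma adjusted p = 0.14) and not called. Lsm14a, a component of P-bodies, had 6173, 6781, 9879.9 and 8191 in MYC-positive arrays, against 6892, 7676, 9936 and 13365 in MYC-negative arrays. Its MYC-positive array was below its partner in 4 of 4 pairs, but the difference of -0.26 (SE 0.14, limma adjusted p = 0.22) was not called and turned to 0.18 after median centring. Its relative Lsm14b gave -0.12, and the U7 snRNP proteins Lsm10 and Lsm11, which serve histone mRNA processing, gave 0.36 and -0.13 with pairs running in both directions.

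None of the 9 SR protein genes tested passed the threshold, while 4 were higher after median centring and 1 without pair 4. Srsf1, the founding member of the family and a known MYC target in tumour cells, had signals of 16452, 16778, 21309.7 and 20752 in MYC-positive arrays, against 13572, 16887, 11609 and 24393 in MYC-negative arrays. The groups overlapped throughout, and the pairs disagreed in sign, from 0.88 in pair 3 to -0.23 in pair 4. The difference of Srsf1 was 0.23 (SE 0.17, limma adjusted p = 0.38). Srsf3, the smallest classical SR protein, had 10752, 11136, 14074 and 16500.1 in MYC-positive arrays, against 8774, 10568, 9647 and 16868 in MYC-negative arrays (difference 0.22, limma adjusted p = 0.25). Srsf2, the SC35 protein of nuclear speckles, had 4467, 5236, 6374 and 6562 in MYC-positive arrays, against 5813, 6163, 5484 and 8135 in MYC-negative arrays (difference -0.18, limma adjusted p = 0.41). Its sign rested on the probe set chosen. Other Srsf2 probe sets gave 0.31 (signals of 6398 against 5176) and 0.53 (690 against 479), and a dim one -0.13. In the probe sets used for all 3 genes, the pair 3 difference was the highest and the groups overlapped.

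The other Srsf genes tested, Srsf4, Srsf5, Srsf6, Srsf9, Srsf10 and Srsf11, had differences from -0.07 to 0.28. The class median by pair was 0.019, -0.0093, 0.51 and -0.12 in pairs 1 to 4, and pair 3 was the highest. Srsf12 was under the filter, with signals of 1.45 to 2.06 in MYC-positive and 3.2 to 29.2 in MYC-negative arrays, levels at which no test was made. Without pair 4, 1 Srsf gene passed the threshold, and after median centring 4 did.

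Of the hnRNP genes, 1 was higher and 1 lower. Hnrnpab, an A/B-type hnRNP of nucleus and cytoplasm, had signals of 11309, 10913, 13195 and 14600.1 in MYC-positive arrays, against 7416, 8676, 9561 and 12121 in MYC-negative arrays. Each MYC-positive array exceeded its partner, with overlap only through 1 bright MYC-negative array, that of pair 4. It was higher by 0.42 (SE 0.12, limma adjusted p = 0.031), and the call was lost without pair 1 (adjusted p = 0.20), pair 2 (0.10) or pair 3 (0.062). Dimmer Hnrnpab probe sets gave 0.54, 0.61, 0.68 and 0.76 without overlap (limma adjusted p over probe sets = 0.020, 0.015, 0.017 and 0.048). The dimmest ones gave 0.58 and 0.09 with overlap (0.17 and 0.84). Hnrnph3, a member of the H/F family that binds runs of G, had 2230.1, 2189, 2702 and 1654 in MYC-positive arrays, against 4018, 3497, 3601 and 3716 in MYC-negative arrays. The highest MYC-positive array was below the lowest MYC-negative one. Hnrnph3 was lower, with a difference of -0.78 (SE 0.16, limma adjusted p = 0.011), and the difference was -0.34 with an adjusted p of 0.21 after median centring. Its call was also lost without pair 1 (adjusted p = 0.084) or pair 2 (0.063).

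The hnRNPs most often tied to MYC were not called. Hnrnpa1, which represses exons and with Hnrnpa2b1 and Ptbp1 sets the choice between the forms of pyruvate kinase M, had signals of 8212, 8432, 9984 and 8817 in MYC-positive arrays, against 7091, 7337, 7659 and 8819 in MYC-negative arrays (difference 0.20, limma adjusted p = 0.27). Hnrnpa2b1 had 11695, 11798, 16041 and 17554 in MYC-positive arrays, against 10194, 11903, 12616 and 19628 in MYC-negative arrays (difference 0.09, limma adjusted p = 0.63), and its sign turned after quantile normalization (-0.083). Ptbp1, the polypyrimidine tract binding protein, which lies outside the prefixes, had 3229, 3891, 2425 and 3218 in MYC-positive arrays, against 2582, 2965, 2292 and 1474 in MYC-negative arrays (difference 0.48, limma adjusted p = 0.10). Groups overlapped for all 3 genes. Pkm, the gene whose splicing they set, was itself higher by 0.65 (limma adjusted p = 0.013), as a level of the gene and not of either form.

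Hnrnpc, which coats uridine tracts, had signals of 7747, 8211, 10079.9 and 11454 in MYC-positive arrays, against 5511, 6215, 7228 and 10692 in MYC-negative arrays (difference 0.37, limma adjusted p = 0.063). It was above its partner in 4 of 4 pairs, but its mean over all kept probe sets gave -0.11. Hnrnpk, which binds cytidine-rich RNA and DNA, had 11751, 12082, 18718 and 16397 in MYC-positive arrays, against 9549.9, 11456, 12462 and 22432 in MYC-negative arrays (difference 0.13, limma adjusted p = 0.62). Hnrnpu, a scaffold attachment protein, had 12565, 12532, 17572 and 17983 in MYC-positive arrays, against 11766, 12949.5, 12023 and 18709 in MYC-negative arrays (difference 0.13, limma adjusted p = 0.51). For Hnrnpk and Hnrnpu the sign turned after quantile normalization, to -0.029 and -0.030. The other 11 Hnrnp genes tested had differences from -0.35 (Hnrnpul2) to 0.30 (Hnrnpm), and Hnrnpll, a regulator of splicing known from T cells and plasma cells, was under the filter, with geometric means of 9.24 in MYC-positive and 4.93 in MYC-negative arrays. Hnrnpdl gave 0.075 from the probe set used. Another Hnrnpdl probe set (6705 against 4961) gave 0.43 without overlap (limma adjusted p over probe sets = 0.036), and the rest gave -0.22 to 0.25.

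Over the family, 7 genes were higher with no overlap between groups, 3 in Snrp and 2 each in Sf3 and Lsm, and 1, Hnrnph3, was lower, against 11.1% and 10.9% of all genes tested. The 7 were Snrpa1, Snrpd3, Snrpf, Sf3a2, Sf3b3, Lsm1 and Lsm12. The share of higher genes is near that background and the share of lower genes below it. Among the 991 genes with a mean signal over 5000, 111 were higher and 52 lower with no overlap.

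Probe sets of 1 gene did not always agree. Of the 56 genes, 40 had another kept probe set, and 21 of these had at least 1 that disagreed, by opposite sign in 20 genes or by a difference over 1 apart in 8. Of the 30 disagreeing probe sets, 26 had a lower difference than the one used and 20 had a mean signal under 1000. In Srsf3, a probe set with mean signals of 445 in MYC-positive and 814 in MYC-negative arrays gave -0.87 (limma adjusted p over probe sets = 0.030), while the other 5 gave 0.22 to 0.58. In Srsf11, a probe set at 258 against 658 gave -1.35 (limma adjusted p over probe sets = 0.019), beside -0.07 for the one used. In Srsf1, a probe set at 2039 against 2926 gave -0.52, in all 4 pairs the same way (limma adjusted p over probe sets = 0.074). A dim Srsf1 probe set at 29.3 against 43.9 gave -0.58 (limma adjusted p over probe sets = 0.40), while 5 others gave 0.17 to 0.26. Srsf2 went the other way, with probe sets that gave 0.31 and 0.53 beside -0.18 for the one used. Which transcripts these probe sets read was not analysed here. Genes whose probe sets ran together included Snrpa1, Snrpd3, Snrpg and Sf3a2.

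**Figure D4:**
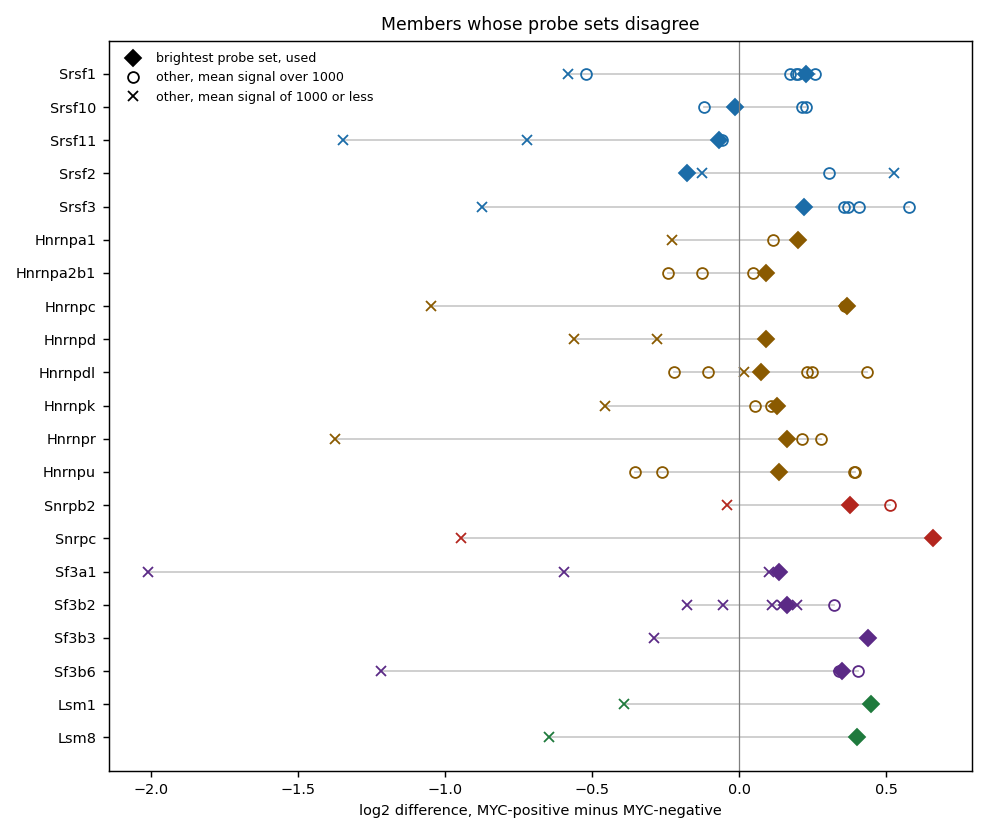
Log2 difference (MYC-positive minus MYC-negative, horizontal axis) of every kept probe set of the 21 genes whose probe sets disagree, where filled diamonds are the probe sets used, circles are others with a mean signal over 1000 and crosses are dimmer ones. The crosses reach furthest left, to -2.01 in Sf3a1, and the circles mostly lie near the diamonds.

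Genes that build or adjust the spliceosome outside the prefixes were described from lists made with results of these data known. The assembly of Sm rings begins with arginine methylation of Sm proteins by the methylosome, after which the SMN complex loads the ring on its RNA. Of 16 genes on this assembly list, 7 were higher (43.8%) and 0 lower, with a median of 0.62. Among all genes tested, 11.2% were higher and 11.5% lower, and among those with a mean signal over 1000, 17.7% and 13.3%. All 16 had a positive difference, against 5393 of all 11754 genes tested, and so did all 8 control genes. Prmt5, the methyltransferase, had signals of 2448, 2908, 2055 and 2198 in MYC-positive arrays, against 906, 1144, 853 and 724 in MYC-negative arrays, and was higher by 1.41 (SE 0.16, limma adjusted p = 0.0010). Wdr77, its partner MEP50, had 1731, 2263, 2777 and 2356 in MYC-positive arrays, against 585, 753, 1019 and 853 in MYC-negative arrays, and was higher by 1.52 (SE 0.16, limma adjusted p = 8.8e-04). Both differed by more than 1 on the log2 scale in every pair, and the groups did not overlap. Gemin5, which recognises the snRNA for the SMN complex, had 851, 1102, 1089 and 375 in MYC-positive arrays, against 389, 253, 287 and 112 in MYC-negative arrays, and was higher by 1.73 (SE 0.25, limma adjusted p = 0.0026).

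The calls for Wdr77 and Gemin5 held under all 14 alternatives, and that for Prmt5 under the 13 that gave it a value. The other 4 higher genes of assembly, named after their values were seen, were Prmt7 (1.35), Clns1a (0.87), which presents Sm proteins to Prmt5, Strap (0.59) and Gemin2 (0.56). With the mean over probe sets, Prmt7 gave 0.55 (limma adjusted p = 0.18) and Clns1a 0.56 (0.059), and neither was called. The count for the list was 5, 5, 5 and 9 without pairs 1, 2, 3 and 4. Smn1 itself had 874, 1402, 1363 and 1564 in MYC-positive arrays, against 992, 770.3, 819 and 712 in MYC-negative arrays, and was not called (difference 0.64, limma adjusted p = 0.087), and pair 1 ran the other way. Of the 7, Gemin5 alone overlapped between groups, since the MYC-positive array of pair 4 (375) lay below the MYC-negative array of pair 1 (389).

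Among the kinases that phosphorylate SR proteins, Clk1 and Clk4 were lower in MYC-positive cells. Clk1, a kinase of the nucleus that releases SR proteins from speckles, had signals of 3173, 3939, 5115 and 4098 in MYC-positive arrays, against 6259, 6328, 5833 and 8556 in MYC-negative arrays. Every MYC-positive array lay below every MYC-negative one, and Clk1 was lower, with a difference of -0.73 (SE 0.17, limma adjusted p = 0.015), which was -0.29 with an adjusted p of 0.31 after median centring. Its relative Clk4 had 1926, 1563, 1616 and 1149 in MYC-positive arrays, against 2671, 2483, 2210.2 and 2482 in MYC-negative arrays, and was lower (difference -0.68, SE 0.17, limma adjusted p = 0.023). Sfswap, an SR-related regulator of alternative splicing, was lower (-1.09, limma adjusted p = 0.029), and Rnps1, an SR-related protein of the exon junction complex, was higher (0.46, limma adjusted p = 0.026). Srpk1, the cytoplasmic SR kinase, had 6434, 7117, 7908 and 8014 in MYC-positive arrays, against 4796, 5283, 4385 and 7812 in MYC-negative arrays (difference 0.44, limma adjusted p = 0.070). Over the 17 genes of this list, 1 was higher (5.88%) and 3 were lower (17.6%), against 11.2% and 11.5% of all genes tested. The list median of -0.21 turned to 0.23 after median centring. With the mean over probe sets, 0 were higher and 5 lower, the median was -0.46, and neither Sfswap (-0.46, limma adjusted p = 0.16) nor Rnps1 (0.30, limma adjusted p = 0.14) was called. None of the 3 lower calls held after median centring, which called 5 genes of the list higher. None held either when arrays were centred on the genes tested, without the intensity trend in the variance, or without pair 1 or pair 2, and under each of these 4 settings 0 genes of the list were called higher.

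**Figure D5:**
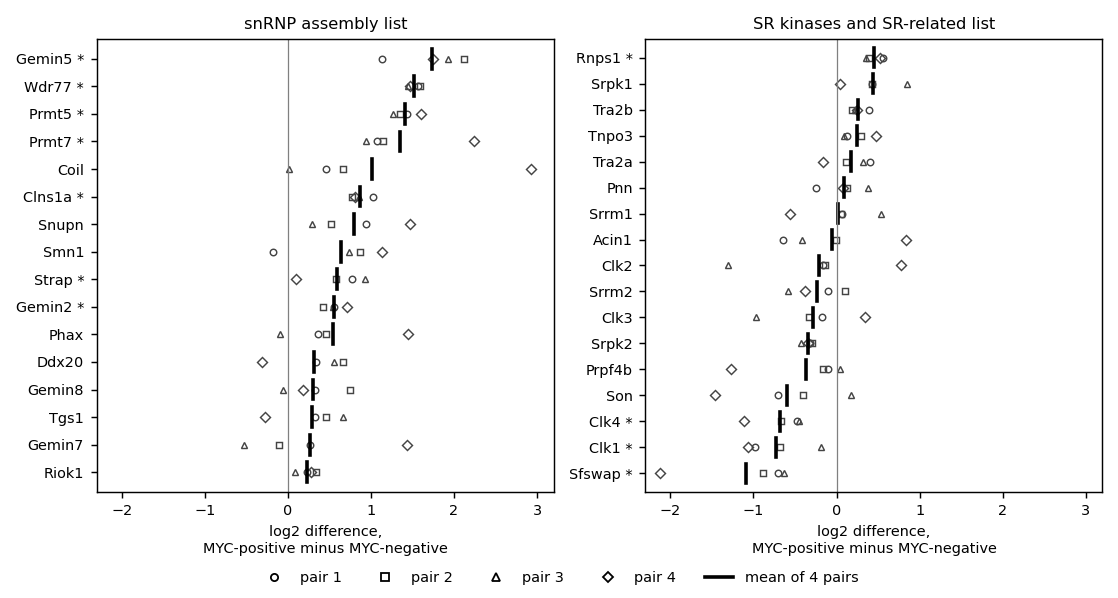
Log2 difference (MYC-positive minus MYC-negative, horizontal axis) of each gene tested on the snRNP assembly list and on the list of SR kinases and SR-related proteins, with symbols for the 4 pairs, bars for their mean and asterisks for an adjusted p under 0.05. All 16 assembly genes have a mean right of 0, and Clk4, Clk1 and Sfswap lie left of it in every pair.

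Other RNA-binding regulators had genes called in both directions, 4% higher and 12% lower, against 11.2% and 11.5% of all genes tested. Of 25 tested, Pcbp1, a poly(C) binding protein, was higher (0.58, limma adjusted p = 0.025), and Mbnl2, Rbm5 and Taf15 were lower (-0.91, -0.92 and -1.10, limma adjusted p = 0.014, 0.022 and 0.015), with a list median of 0.01 that was -0.13 after quantile normalization. Without pair 1 or pair 2, 0 genes of this list were called, and after median centring 0 were lower. Taf15, a FET family protein, had 772, 698, 874 and 271 in MYC-positive arrays, against 1626, 1219, 1289.7 and 1050.3 in MYC-negative arrays, without overlap, but gave -0.42 (limma adjusted p = 0.24) with the mean over probe sets. Rbm5, a regulator known from apoptosis genes, had 1505, 1202, 742 and 1178 in MYC-positive arrays, against 2745, 2528, 2229 and 1313 in MYC-negative arrays, and overlapped through the MYC-negative array of pair 4. Among proteins of the U1 snRNP, the U4/U6.U5 tri-snRNP and the minor spliceosome without the prefixes, 4 of 20 were higher and 0 lower, with a median of 0.33: Prpf31 (0.89), Usp39 (0.77), Txnl4a (0.72) and Snrnp25 (0.54). With the mean over probe sets, Txnl4a gave 0.40 (limma adjusted p = 0.52) and was not called. Among genes of branch site and 3′ splice site recognition, 3 of 11 were higher and 0 lower, with a median of 0.43. They were Rbm17 (0.58), U2af1 (0.57), the subunit of U2AF that reads the AG at the intron's end, and Phf5a (0.54), a further SF3b subunit. Without pair 1 or pair 2, 0 genes of either list were called.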

How the data were processed

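Spleen GC B cells sorted by GFP were measured on Affymetrix Mouse 430 2.0 arrays, 4 MYC-positive and 4 MYC-negative. NuGEN kits amplified cDNA from 5 to 20 ng of RNA, per the labels' protocols. The authors deposited 1 linear signal intensity per probe set and array, made with MAS5 per the submitters' processing notes, whose version and scaling target the sources used here do not give. Arrays have no read depth, so their number limits the precision.

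Of 45056 probe sets, 34945 carried 1 gene symbol in the platform annotation, 932 carried several, 9160 carried none and 19 were controls. Symbols were looked up in RefSeq, which changed 0. Signals under 1 were set to 1, log2 was taken, and probe sets with a mean above the 40th percentile (a signal of 18.7) were kept, 27022 in all. The brightest probe set of each gene was used, which gave 11754 genes. Group and pair were the terms of the model (limma 3.58.1, R 4.3.3; lmFit, then eBayes with an intensity trend), leaving 3 residual degrees of freedom. P-values were two-sided and adjusted by Benjamini-Hochberg over all genes tested, and genes were called at an adjusted p under 0.05. A positive difference is higher in MYC-positive cells. Probe sets of 1 gene were said to disagree at opposite sign or over 1 apart on the log2 scale. The fit was tested on simulated data.

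Partners are named in the sample descriptions. Deviations of the 2 arrays of a pair from their group means correlated at 0.26, 0.17, 0.088 and 0.12 for pairs 1 to 4. The members and gene lists were chosen with earlier results of these data known. Full values were given for the largest called differences of each class, for fixed names and for genes behind counts of 5 or fewer. Promoter windows came from RefSeq (GRCm38.p6), for 51 of 59 members. Alternatives changed the normalization, the floor, the filter, the choice of probe set, the pair block and the variance model, or left out each pair. Exclusion of probe sets named _x_at or _s_at and centring on the genes tested were chosen after seeing the data. Srsf7 was not analysed here, and neither were protein sequences.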

Additional observations from a re-analysis of the deposited data

Results flagged for a closer look

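In 3 of 112 groups of 4 arrays, the highest array stood far from the other 3 by Dixon's gap test, which flags about 1 in 20 groups by chance. Each was the MYC-positive array of pair 4. Snrpd3 had a signal of 15050.2 there, against 10613 in the next MYC-positive array. Lsm6 had 9116, against 6297, and Hnrnpul1 had 4206, against 3069.9. Without pair 4, Snrpd3 was still higher, by 0.69 (limma adjusted p = 0.0013). Lsm6 gave 0.27 without that pair (limma adjusted p = 0.16), against 0.31 with it (0.11). Hnrnpul1 gave -0.27 without that pair (limma adjusted p = 0.16), against -0.12 with it (0.64). No cause was tested.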

How the results depend on the processing

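Of the 13 called members, 2 kept the call under all 14 alternatives and 11 lost it under at least 1, while 30 of the members not called gained a call and 30 changed sign under at least 1. The cause of these changes was not tested, except that leaving out a pair lowers the residual degrees of freedom. Counts are of genes called, and medians and differences are log2 values, positive where MYC-positive cells were higher.

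After median centring, members had 39 higher and 0 lower with a median of 0.65. Srsf had 4 higher (median 0.50), Hnrnp 12 higher and 0 lower (0.56), Sf3 8 higher (0.84) and Lsm 7 higher (0.78), and the Snrp median was 1.02. Snrp had 8 higher. The assembly list had 14 higher (median 1.06), the other splicing lists together 71 higher and 0 lower (0.69), and all genes 3204 higher and 546 lower (0.38). After quantile normalization, 4 members were lower, 2 in Hnrnp, 1 in Sf3 and 1 in Lsm, the Hnrnp median was -0.029 and that of all genes 0.087. With the mean over probe sets, 2 members were lower and the median was 0.087, Sf3 had 1 higher and 1 lower with a median of 0.10, and the other lists together had 14 lower and a median of 0.075. Centred on the genes tested, Hnrnp had 0 higher and the other lists 3 lower. Without the filter, Hnrnp had 0 higher and Sf3 1. Without probe sets named _x_at or _s_at, the Snrp median was 0.75 and Sf3 had 1 higher. Without the intensity trend, members had 4 higher and 0 lower (Hnrnp 0 and 0, Snrp 3, Sf3 0 and Lsm 1 higher), the other lists 6 higher and 0 lower, and all genes 736 higher and 771 lower. With no replicate block for the pairs, members had 7 higher (Hnrnp 0, Sf3 1), the other lists 12 higher and all genes 901 lower.

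Leaving out each pair in turn gave 3 to 16 members higher and 0 to 1 lower, with 0 to 1 higher in Srsf, 0 to 2 in Hnrnp, 2 to 7 in Snrp, 0 to 3 in Sf3 and 0 to 3 in Lsm, and 0 to 1 lower in Hnrnp. The other lists together gave 5 to 33 higher and 0 to 7 lower, and all genes 399 to 1747 higher and 355 to 2057 lower. The lowest counts of all genes came without pair 1.

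Signs turned in these members. After median centring, differences became 0.42 (Srsf10), 0.37 (Srsf11), 0.26 (Srsf2), 0.31 (Hnrnpl), 0.32 (Hnrnpul1), 0.087 (Hnrnpul2), 0.20 (Sf3b1), 0.31 (Lsm11), 0.18 (Lsm14a), 0.32 (Lsm14b) and 0.30 (Lsm7). After quantile normalization they became -0.12 (Srsf5), -0.0041 (Hnrnpa0), -0.083 (Hnrnpa2b1), -0.056 (Hnrnpd), -0.091 (Hnrnpdl), -0.068 (Hnrnpf), -0.13 (Hnrnph1), -0.029 (Hnrnpk), 0.094 (Hnrnpl), -0.00089 (Hnrnpr), -0.030 (Hnrnpu), -0.0066 (Sf3b2), 0.29 (Lsm11) and 0.14 (Lsm7). With the mean over probe sets they became -0.0072 (Srsf1), 0.077 (Srsf10), 0.13 (Srsf2), -0.057 (Hnrnpa2b1), -0.11 (Hnrnpc), -0.25 (Hnrnpd), -0.042 (Hnrnpk), -0.18 (Hnrnpr), -0.14 (Snrpc), -0.59 (Sf3a1), -0.031 (Sf3b6) and -0.12 (Lsm8). Centred on the genes tested, Srsf10 became 0.038. Leaving out a pair gave -0.059 to 0.088 for Srsf10, -0.31 to 0.33 for Srsf2, -0.20 to 0.23 for Srsf4, -0.12 to 0.12 for Srsf5, -0.025 to 0.32 for Hnrnpk, -0.0032 to 0.20 for Hnrnpu, -0.59 to 0.26 for Lsm11, -0.037 to 0.51 for Lsm4 and -0.27 to 0.085 for Lsm7.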

Other observations

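Genes of later steps of splicing were described in the same way. Of 23 genes of the Prp19 complex and the catalytic steps, 2 were higher (8.7%) and 0 lower, with a median of 0.21. Among all genes tested, 11.2% were higher and 11.5% lower. Prpf19, the ubiquitin ligase that names the complex, had signals of 14962, 13332, 16336 and 18811 in MYC-positive arrays of pairs 1 to 4, against 9523, 12240.2, 9768 and 15078 in MYC-negative arrays. Each pair ran the same way although the groups overlapped, with a difference of 0.46 (SE 0.13, limma adjusted p = 0.037). The call for Prpf19 was lost without pair 1 (adjusted p = 0.22), pair 2 (0.057) or pair 3 (0.09). Ppil1, a prolyl isomerase of the spliceosome, was higher by 0.67 (SE 0.17, limma adjusted p = 0.020), and its call was lost without pair 1 (adjusted p = 0.12) or pair 2 (0.07). Plrg1, a partner of Prpf19 in the complex, gave 0.51 (limma adjusted p = 0.050) and was not called.

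Of 9 genes of the exon junction complex and mRNA export, 2 were higher (22.2%) and 0 lower, with a median of 0.41. Rbm8a, the Y14 protein of the exon junction complex, had signals of 6520.4, 6493, 6327 and 7702 in MYC-positive arrays, against 4129, 4336, 3694 and 4521 in MYC-negative arrays. The groups did not overlap, and Rbm8a was higher by 0.70 (SE 0.12, limma adjusted p = 0.0058), with an adjusted p of 0.054 without pair 1. Ddx39b, the helicase UAP56 that acts in spliceosome assembly and export, was higher by 0.61 (SE 0.15, limma adjusted p = 0.023), with adjusted p-values of 0.11 without pair 1 and 0.052 without pair 2. Thoc2, of the THO complex, gave -0.69 (limma adjusted p = 0.11) and was not called.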
